A study of Mus musculus with 9 samples.

Results

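The Hox cluster genes were followed across 9 lists of open-chromatin peaks from mouse blood stem and progenitor cells. Of the Hox genes, 38 were examined: 10 in Hoxa, 10 in Hoxb, 9 in Hoxc and 9 in Hoxd, chosen by name. All peaks from the first to the last of these genes in each cluster, plus 100 kb on each side, were taken. Overlapping peaks of the 9 lists were merged, which gave 146 Hox-domain regions. Of these, 42 had a peak in a single library and 104 in 2 or more, and the 104 were analysed, out of 95786 such regions in the genome. A region is called held by a library when that library's list has a peak in it. Of the 104 regions, 55 lay inside the clusters and 49 in the flanks. One further Hoxa gene is not analysed here, and regions close to it were counted in the Hoxa flank only.

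The assay was ATAC-seq, which tags accessible DNA with sequencing adapters through the transposase Tn5. It was run on LT-HSCs, the long-term blood stem cells, and on MPPs, the multipotent progenitors that descend from them. Both were sorted by flow cytometry from bone marrow of C57BL/6 mice after enrichment of lineage-negative cells from pooled animals. The KO group carried the genotype RXRa/RXRb-KO, a loss of the retinoid X receptors alpha and beta, and the controls were wild-type (WT). Libraries keep their label numbers. LT-HSC KO 1, KO 2 and KO 4 had lists of 22690, 43126 and 71586 peaks, and LT-HSC WT 2 and WT 3 of 50023 and 22878. In MPP, where each genotype has replicates 1 and 2, they held 78189 to 86353. No source used here gives the Cre driver, the deleted exons or the age of the mice. Whether replicates are separate pools of animals is not stated, so p-values measure only how far these libraries spread, and that spread may be technical.

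The lists give peaks without read counts, so depth is unknown and no interval from counting error can be given. They are bulk lists, so fewer cells of a type with an open region and a weaker signal per cell cannot be told apart. Peaks at the knocked-out genes do not check the labels, because the deleted part is not known. Rxra had 0, 4 and 16 of its 21 assigned regions held in LT-HSC KO 1, 2 and 4, 12 and 5 in LT-HSC WT 2 and 3, and 17 to 19 in MPP. Of 10 genes that mark LT-HSCs, 3 to 9 had a promoter peak in the LT-HSC libraries and 8 or 9 in MPP. Of 6 genes that mark MPPs, 2 to 5 had one in LT-HSC and all 6 in every MPP library. Of 6 mature myeloid genes, 0 to 3 had one in LT-HSC and 4 or 5 in MPP, and of 5 T cell genes 0 to 2 and 2. Of 6 stromal and endothelial genes, 1 to 5 had one in LT-HSC and 3 or 4 in MPP. The counts were 0 to 3 and 2 for 4 mature erythroid genes, and 1 and 2 for 5 B cell genes. For 4 non-blood genes they were 0 or 1 and 1 or 2. The part of these cell types in the differences below was not tested.

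Hox genes encode homeodomain transcription factors that give cells their position along the body axis in the embryo. They stand in 4 clusters in the mouse, and genes of the same number in different clusters are paralogues. Genes with low numbers are called anterior and those with high numbers posterior. In blood, Hoxa9, Hoxa10 and Hoxb4 are known for their role in stem cell self-renewal, and Hoxb5 marks LT-HSCs. HOX proteins bind DNA with TALE cofactors of the MEIS and PBX families. Trithorax proteins such as KMT2A keep Hox clusters active and Polycomb proteins keep them silent. Retinoic acid activates several Hox genes in the embryo through receptors that pair with RXR.

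The clusters lay at chr6:52162417-52260880 (Hoxa), chr11:96194316-96368254 (Hoxb), chr15:102921131-103036856 (Hoxc) and chr2:74668225-74765142 (Hoxd) of the mm10 build. The Hoxa cluster held 16 analysed regions in 98.5 kb, Hoxb 22 in 174 kb, Hoxc 8 in 116 kb and Hoxd 9 in 96.9 kb. Per 100 kb this was 16.2, 12.6, 6.91 and 9.29 regions.

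The promoter sequences below show where peaks met a Hox gene start. RefSeq promoter windows of GRCm38.p6, the assembly behind mm10, covered 22 of the 38 genes with 24 windows of 300 bases. A merged region overlapped 7 of the 24 windows. The first 250 bases of 5 of these, and of the window of Hoxd3os1, which is not a member, are printed 5′ to 3′ on the gene's strand, with the bases inside the region in capitals. Hoxd3os1, an antisense transcript gene within Hoxd3, is shown first because its start lies in the single cluster region held by all 9 libraries. Hoxa5 and Hoxa3 are shown for starts held by 8 libraries, Hoxc4 for 1 LT-HSC and 4 MPP libraries, and Hoxa13 and Hoxd9 for 3 MPP libraries and no LT-HSC library.
Hoxd3os1 (chr2:74716131-74716380, minus strand): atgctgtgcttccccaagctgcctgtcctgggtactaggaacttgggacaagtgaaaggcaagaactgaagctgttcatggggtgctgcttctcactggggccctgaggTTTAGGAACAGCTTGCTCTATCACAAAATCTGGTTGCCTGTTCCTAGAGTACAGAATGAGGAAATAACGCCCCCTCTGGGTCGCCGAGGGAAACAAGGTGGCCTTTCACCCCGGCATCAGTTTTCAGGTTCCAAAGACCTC
Hoxa5 (chr6:52204588-52204837, minus strand): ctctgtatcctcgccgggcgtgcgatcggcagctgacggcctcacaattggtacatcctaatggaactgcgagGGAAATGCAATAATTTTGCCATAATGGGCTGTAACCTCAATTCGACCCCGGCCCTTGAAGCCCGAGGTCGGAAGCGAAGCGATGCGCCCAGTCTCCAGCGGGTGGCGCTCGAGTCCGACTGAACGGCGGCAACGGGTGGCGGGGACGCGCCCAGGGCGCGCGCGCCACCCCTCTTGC
Hoxa3 (chr6:52213068-52213317, minus strand): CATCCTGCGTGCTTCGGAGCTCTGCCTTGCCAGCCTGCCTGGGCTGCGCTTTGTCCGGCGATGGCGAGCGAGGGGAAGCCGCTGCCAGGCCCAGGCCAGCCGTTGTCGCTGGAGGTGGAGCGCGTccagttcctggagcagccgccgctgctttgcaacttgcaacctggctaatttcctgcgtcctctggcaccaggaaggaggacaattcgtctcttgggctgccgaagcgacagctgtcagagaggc
Hoxc4 (chr15:103034145-103034394, plus strand): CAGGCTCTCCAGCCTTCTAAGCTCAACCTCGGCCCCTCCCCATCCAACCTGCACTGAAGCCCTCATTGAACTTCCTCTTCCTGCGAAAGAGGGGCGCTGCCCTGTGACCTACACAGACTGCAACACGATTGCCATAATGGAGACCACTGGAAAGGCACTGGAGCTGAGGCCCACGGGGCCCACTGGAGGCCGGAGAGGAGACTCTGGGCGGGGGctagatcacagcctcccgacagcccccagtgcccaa
Hoxa13 (chr6:52260881-52261130, minus strand): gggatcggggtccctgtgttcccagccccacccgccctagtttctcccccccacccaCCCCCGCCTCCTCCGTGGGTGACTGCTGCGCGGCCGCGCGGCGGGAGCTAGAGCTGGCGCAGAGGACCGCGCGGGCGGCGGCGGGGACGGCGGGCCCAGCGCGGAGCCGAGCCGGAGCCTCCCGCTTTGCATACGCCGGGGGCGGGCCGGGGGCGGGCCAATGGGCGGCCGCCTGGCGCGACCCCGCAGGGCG
Hoxd9 (chr2:74697513-74697762, plus strand): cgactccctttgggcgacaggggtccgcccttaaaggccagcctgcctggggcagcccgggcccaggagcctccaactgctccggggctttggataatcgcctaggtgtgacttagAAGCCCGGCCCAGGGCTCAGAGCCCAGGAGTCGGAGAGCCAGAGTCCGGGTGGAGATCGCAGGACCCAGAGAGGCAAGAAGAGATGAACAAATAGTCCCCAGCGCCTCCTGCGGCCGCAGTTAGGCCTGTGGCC

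In capitals stand 141 of the 250 bases for Hoxd3os1, 177 for Hoxa5, 125 for Hoxa3, 214 for Hoxc4, 193 for Hoxa13 and 134 for Hoxd9. The 7 Hox windows that met a region had a median of 20 CpG dinucleotides and a GC content of 64%, and the 17 without a region a median of 13 and 54.3%. All 32851 RefSeq windows had medians of 7 and 52.7%. Hoxd13, with 37 CpGs and 74.3% GC, met no region, so a CpG-rich window was not always a held one.

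Short motifs were searched on both strands of the 300-base windows. The letters AGGTCA, the half-site to which nuclear receptors including RXR pairs bind, were in 7 of the 24 Hox windows (29.2%) and in 16.3% of all windows. They were in the windows of Hoxa5 and Hoxc4, which met a region, and in those of Hoxb4, Hoxd3, Hoxd4, Hoxd8 and Hoxd10, which did not. The CCAAT box, CCAAT, was in 62.5% of Hox windows and 37.4% of all windows. The HOX-PBX site TGATTNAT was in 8.33% and 3.22%, the homeobox core TAATTA in 8.33% and 5.29%, the MEIS site TGACAG in 8.33% and 19.2%, and the ETS site CCGGAAG in 0% and 8.86%. The TATA box TATAAA was in 16.7% and 13.6%, and the GC box GGGCGG in 41.7% and 35.7%. These matches are descriptions of letters and were not tested.

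The Hox clusters also hold microRNA genes, 2 of which are shown because they lie close to regions held in all 4 MPP libraries and in no LT-HSC library. Their seeds, bases 2 to 8, stand in capitals and are the same.
miR-10a-5p: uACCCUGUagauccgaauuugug
miR-10b-5p: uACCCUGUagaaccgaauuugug

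The Mir10a hairpin (chr11:96317165-96317274, between Hoxb5 and Hoxb4) lay 382 bp from the region chr11:96317656-96317988. The Mir10b hairpin (chr2:74726070-74726137, within the bounds of Hoxd4 and Hoxd3) lay 1472 bp from the region chr2:74724263-74724598. Both peaks were weak, with ranks of 59145 to 86183 and 38149 to 66981 in the MPP lists, where rank 1 is the strongest peak by −log10 p-value.

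Presence over the Hox domains differed more between LT-HSC libraries than between MPP libraries. LT-HSC KO 1, KO 2 and KO 4 held 5, 22 and 70 of the 104 regions. LT-HSC WT 2 and WT 3 held 53 and 21. In MPP the KO libraries held 83 and 83 and the WT libraries 82 and 81, so every MPP library held more than every LT-HSC library. As a share this was 32.9% ± 25.5 (SD, n = 5) in LT-HSC and 79.1% ± 0.921 (SD, n = 4) in MPP. Over all 95786 regions the shares were 40.5% ± 18.3 and 81.5% ± 3.01, a gap of like size, and the length of the lists and the cell type cannot be told apart.

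Against the share of all regions in the same library, the Hox domains were low in 2 LT-HSC KO libraries. LT-HSC KO 1 held 4.81% of Hox-domain regions and 22.7% of all regions, and LT-HSC KO 2 held 21.2% and 41.0%. LT-HSC WT 3, whose list is about as long as that of KO 1, held 20.2% and 23.1%. In the other libraries the shares were close: LT-HSC KO 4 held 67.3% and 65.5%, LT-HSC WT 2 held 51.0% and 50.0%, and the MPP libraries held 77.9% to 79.8% against 78.1% to 84.7%. The 3 LT-HSC KO libraries thus lay on both sides of the WT libraries.

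In percentage points, the gap to all regions was wider near gene starts than away from them. Of 37 Hox-domain regions within 1 kb of a start, LT-HSC KO 1 held 8.11%, KO 2 21.6% and KO 4 78.4%, and LT-HSC WT 2 and WT 3 held 67.6% and 24.3%. Over all regions near a start these libraries held 52.2%, 69.0%, 87.0%, 78.1% and 56.6%. In the MPP libraries 75.7% to 81.1% of the Hox regions near starts and 89.6% to 92.6% of all such regions were held. The Hox share near starts was the lower one in each of the 9 libraries, a difference that was not tested. Away from starts, LT-HSC KO 1 held 2.99% of Hox-domain regions and 16.5% of all regions, and KO 2 held 20.9% and 35.1%.

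**Figure D1:**
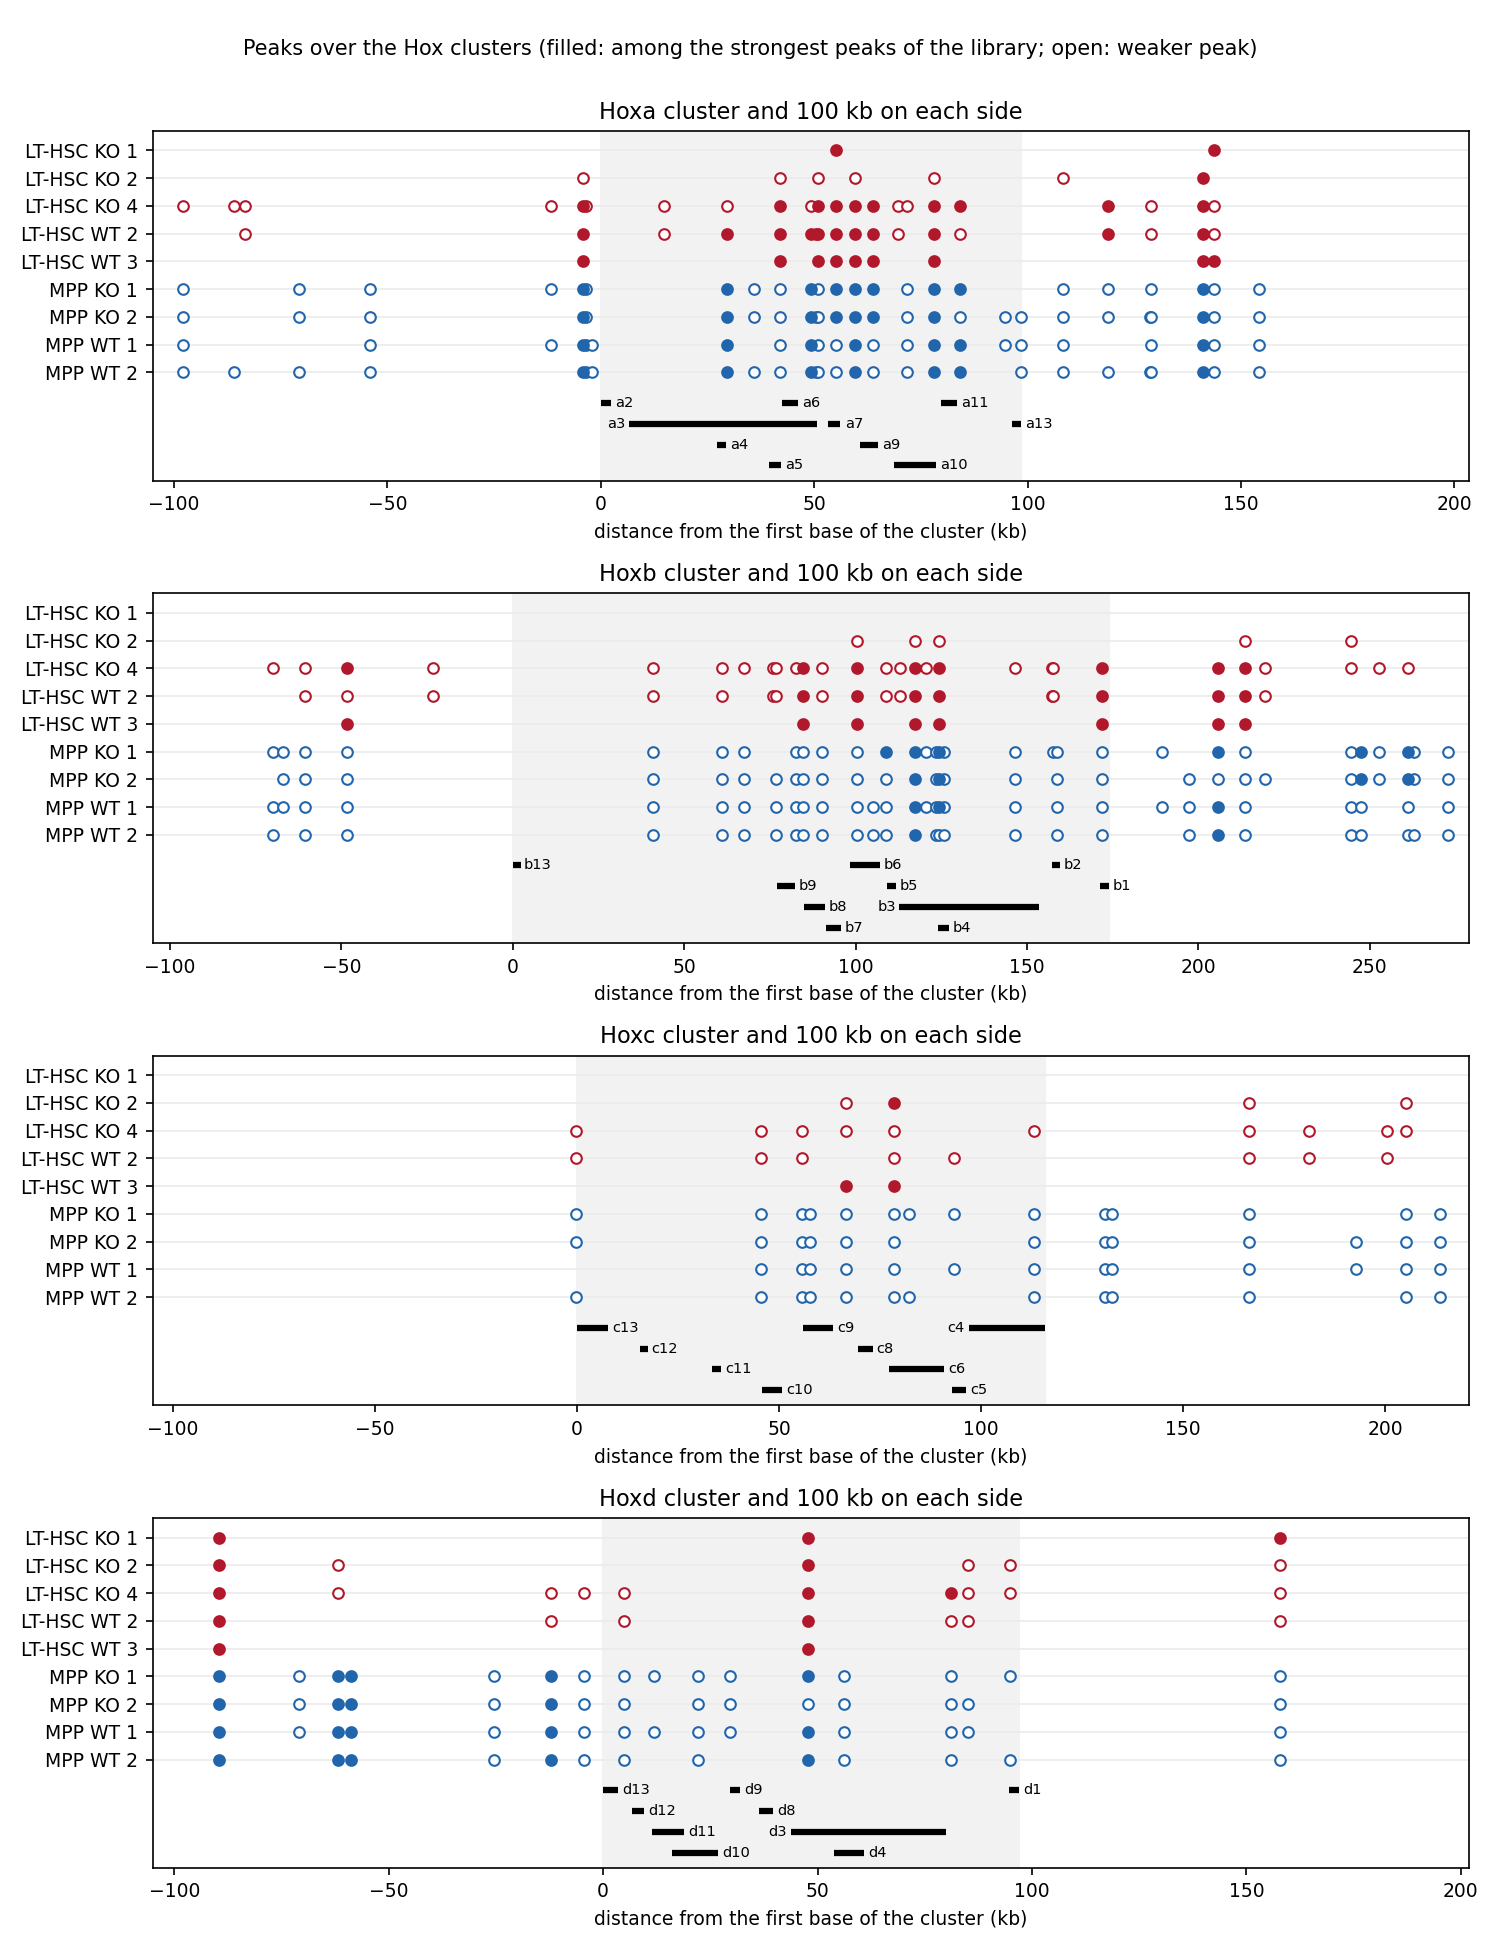
Peaks of the 9 libraries over each Hox cluster, with the distance from the first base of the cluster in kb on the horizontal axis and 1 row per library. Filled circles are regions among the 22690 strongest peaks of a library, open circles are weaker peaks, black bars are gene bounds and the grey band is the cluster. LT-HSC KO 1 has no circle in Hoxb or Hoxc, and the flank left of Hoxd has filled circles in the MPP rows that the LT-HSC rows lack.

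**Figure D2:**
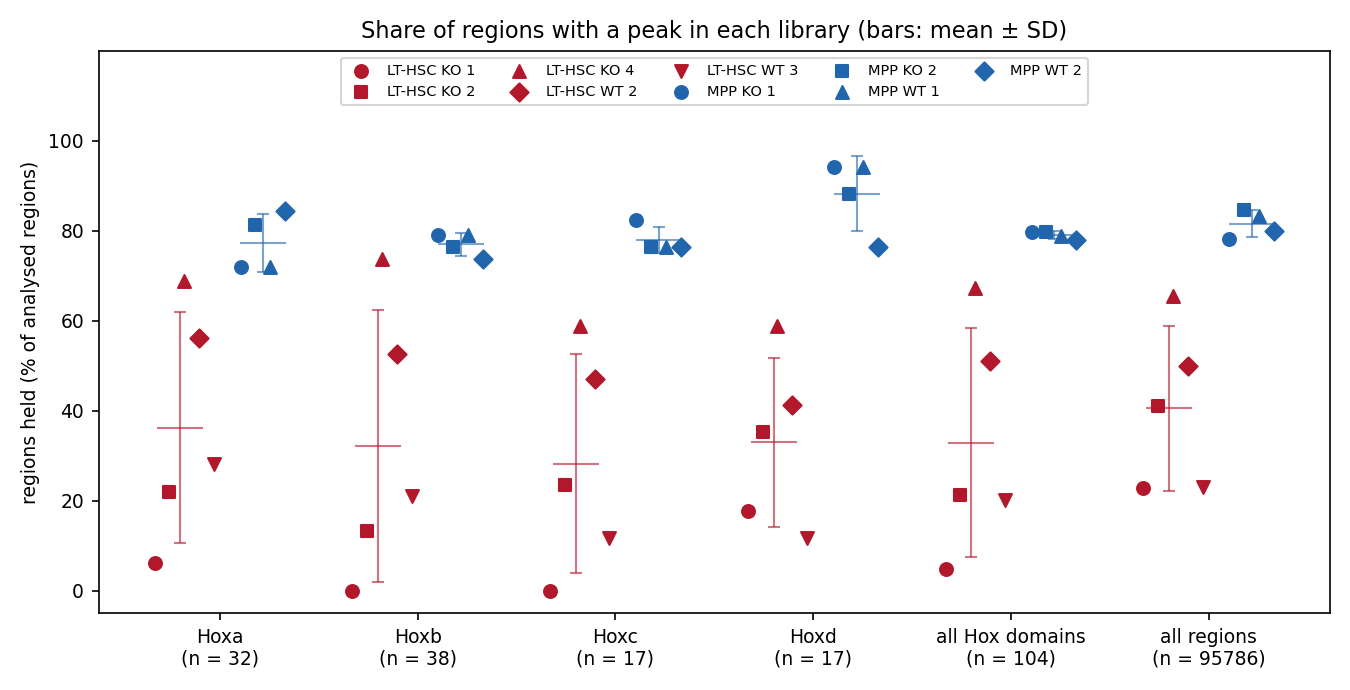
Share of analysed regions held by each library, in percent, for each Hox domain, all Hox domains and all regions. Points are libraries and bars are the mean ± SD of 5 LT-HSC or 4 MPP libraries. In the Hoxb domain the LT-HSC libraries run from 0% to 73.7% and the MPP libraries from 73.7% to 78.9%.

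In each cluster the mean share was lower in LT-HSC than in MPP, and the gap was not compared between clusters. In the Hoxa domain (32 regions) the share held was 36.2% ± 25.6 in LT-HSC and 77.3% ± 6.44 in MPP. In Hoxb (38 regions) it was 32.1% ± 30.3 and 77.0% ± 2.52, in Hoxc (17 regions) 28.2% ± 24.4 and 77.9% ± 2.94, and in Hoxd (17 regions) 32.9% ± 18.9 and 88.2% ± 8.32 (SD, n = 5 and 4). The LT-HSC and MPP values did not overlap in Hoxa, Hoxc and Hoxd. In Hoxb, LT-HSC KO 4 and MPP WT 2 both held 73.7%. Hoxb and Hoxc had no region in LT-HSC KO 1, against 20 and 8 in LT-HSC WT 2 and 8 and 2 in LT-HSC WT 3.

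Lists of unequal length favour the longer list, so each library was also cut to its 22690 strongest peaks, as many as LT-HSC KO 1 has. Of the 104 regions, LT-HSC KO 1, KO 2 and KO 4 then held 5, 4 and 21, LT-HSC WT 2 and WT 3 held 20 and 21, and the MPP libraries 20, 16, 15 and 14. LT-HSC KO 4 and both LT-HSC WT libraries were at or above the MPP libraries, and LT-HSC KO 1 and KO 2 below all of them. All regions gave 22.7% to 23.5% in LT-HSC and 23.5% to 23.6% in MPP under the same limit. Within the clusters alone the counts were 2, 2, 14, 14 and 14 in LT-HSC and 11, 8, 8 and 7 in MPP.

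Only 2 of the 104 regions (against 13908 of 95786 overall) were held by all 9 libraries. The first, chr2:74578247-74579226, lies at the start of Lnpk, a flanking gene for an endoplasmic reticulum protein. Its ranks were 5354, 6234, 10888, 4882 and 6287 in LT-HSC KO 1, KO 2, KO 4, WT 2 and WT 3, and 6644, 5813, 7030 and 5705 in the MPP libraries, in the order KO 1, KO 2, WT 1, WT 2. Both groups overlap at this region, which was among the strongest peaks everywhere. The second, chr2:74715734-74716271 in Hoxd3, is the Hoxd3os1 start shown above. Its ranks in the same order were 17074, 14325, 18486, 20256 and 16341 in LT-HSC and 18643, 27112, 21192 and 20788 in MPP, and the groups overlap again. The next-best median rank in Hoxd, 33151, was that of chr2:74825595-74826457, nearest to the flanking gene Mtx2. It ranked 21382, 33566, 24746 and 23845 in LT-HSC KO 1, KO 2, KO 4 and WT 2, with no peak in WT 3. MPP ranks there were 33320, 35580, 33151 and 32581.

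Region by region, presence was compared between cell types with two-sided Fisher's exact tests, Benjamini-Hochberg adjusted over all 52020 regions tested. In the Hox domains 63 regions were tested, and 15 were held more in MPP and 0 in LT-HSC. Over the genome 31.9% of tested regions were called toward MPP and 0.442% toward LT-HSC, so the Hox count of 15 of 63 (23.8%) lies below that background and is no result about the Hox domains. In each of the 15, all 4 MPP libraries and none of the 5 LT-HSC libraries had a peak, with an adjusted Fisher's exact p of 0.0245. When all lists were limited to the 22690 strongest peaks, 3 of 29 Hox-domain regions (10.3%) were called, beside 8.41% of all regions, and 1 of the 15, chr2:74609336-74609782, was among them.

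Inside the clusters lay 6 of the 15, of which 3 were in Hoxb. Around Hoxb4, a self-renewal factor, they were the region beside Mir10a and one at chr11:96320013-96320292 within the gene bounds, with MPP ranks of 57823, 66189, 67893 and 56873. The third Hoxb region, chr11:96352806-96353531 in Hoxb2, an anterior gene of hindbrain patterning, had MPP ranks of 61265, 60359, 64958 and 55381. These Hoxb peaks were weak in every MPP list.

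In the other clusters, the region chr15:102978641-102978998 in Hoxc9, a posterior gene, had MPP ranks of 37937, 43590, 37786 and 36563. The region chr2:74690087-74690488 in Hoxd10, a posterior limb gene, had 43745, 42763, 45700 and 44296. The sixth, in Hoxd4, is the one near Mir10b. No region called for presence lay inside the Hoxa cluster.

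The flanks held the other 9. In the Hoxb and Hoxc flanks, 2 were nearest to Skap1, which encodes a T cell adaptor protein, 2 lay beyond Hoxc4 and 1 was nearest to Smug1, a DNA repair gene. The strongest of these, chr11:96441516-96442053, had MPP ranks of 22403, 22671, 26851 and 26321. The remaining 4 were 1 in the outer Hoxa flank, 1 in Evx1 and 2 between Lnpk and Evx2. Evx1 and Evx2 are homeobox genes that sit beside the posterior ends of Hoxa and Hoxd.

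Strength was compared with a two-sided exact permutation test of ranks among the 22690 strongest peaks, with 22691 entered where a region was not among them. Of 29 Hox-domain regions tested, 5 were stronger in MPP and 0 in LT-HSC, with an exact permutation p of 0.00794, the smallest that 5 against 4 libraries allow, and an adjusted p of 0.0444. Over all 33933 regions tested, 12.4% were called toward MPP and 5.45% toward LT-HSC, so 5 of 29 (17.2%) is near the background.

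Of these 5 regions, 3 lay between Lnpk and Hoxd13, in the flank on the posterior side of Hoxd. At chr2:74606086-74606685, 27.4 kb from Lnpk, MPP ranks were 11789, 10920, 9745 and 10144, and of the LT-HSC libraries only KO 2 (34472) and KO 4 (67620) had a peak. At chr2:74609336-74609782, 30.6 kb from Lnpk, MPP ranks were 14754, 12391, 19770 and 13675 and no LT-HSC library had a peak. At chr2:74655801-74656288 in Evx2, MPP ranks were 10090, 12356, 11543 and 11112, with LT-HSC peaks in KO 4 (62205) and WT 2 (46220).
These were strong MPP peaks that were weak or missing in both LT-HSC genotypes. MPP KO and WT ranks overlapped at the region 30.6 kb from Lnpk and in Evx2, and at the region 27.4 kb from Lnpk both WT libraries ranked above both KO libraries. The mean rank in MPP was 10650 ± 903, 15148 ± 3229 and 11275 ± 944 (SD, n = 4), against 22691 in every LT-HSC library. Of the 8 regions in the Hoxd flanks, MPP libraries had 4 among their strongest peaks in each case, and LT-HSC libraries 1 or 2.

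The other 2 lay in and beyond Hoxa. At chr6:52303415-52303838, 9.87 kb from Evx1, MPP ranks were 10038, 7328, 10092 and 7074, and LT-HSC ranks were 22077 (KO 2), 16414 (KO 4), 19099 (WT 2) and 22590 (WT 3), with no peak in KO 1. At chr6:52211558-52211923 in Hoxa3, an anterior gene, MPP ranks were 12879, 18491, 15241 and 11954, and LT-HSC KO 4 and WT 2 had 25929 and 18937. The groups did not overlap at either region. The mean rank was 20574 ± 2752 in LT-HSC (SD, n = 5) and 8633 ± 1657 in MPP (SD, n = 4) at the first, and 21940 ± 1679 and 14641 ± 2916 at the second. With peaks ranked by fold enrichment, the Hoxa3 region lost its call, as the LT-HSC minus MPP difference in mean rank went from 7299 to 880 (adjusted exact permutation p of 0.278). The region 30.6 kb from Lnpk lost it too, from 7544 to 2577 (adjusted exact permutation p of 0.123). The other 3 regions were still called under that ranking.

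**Figure D3:**
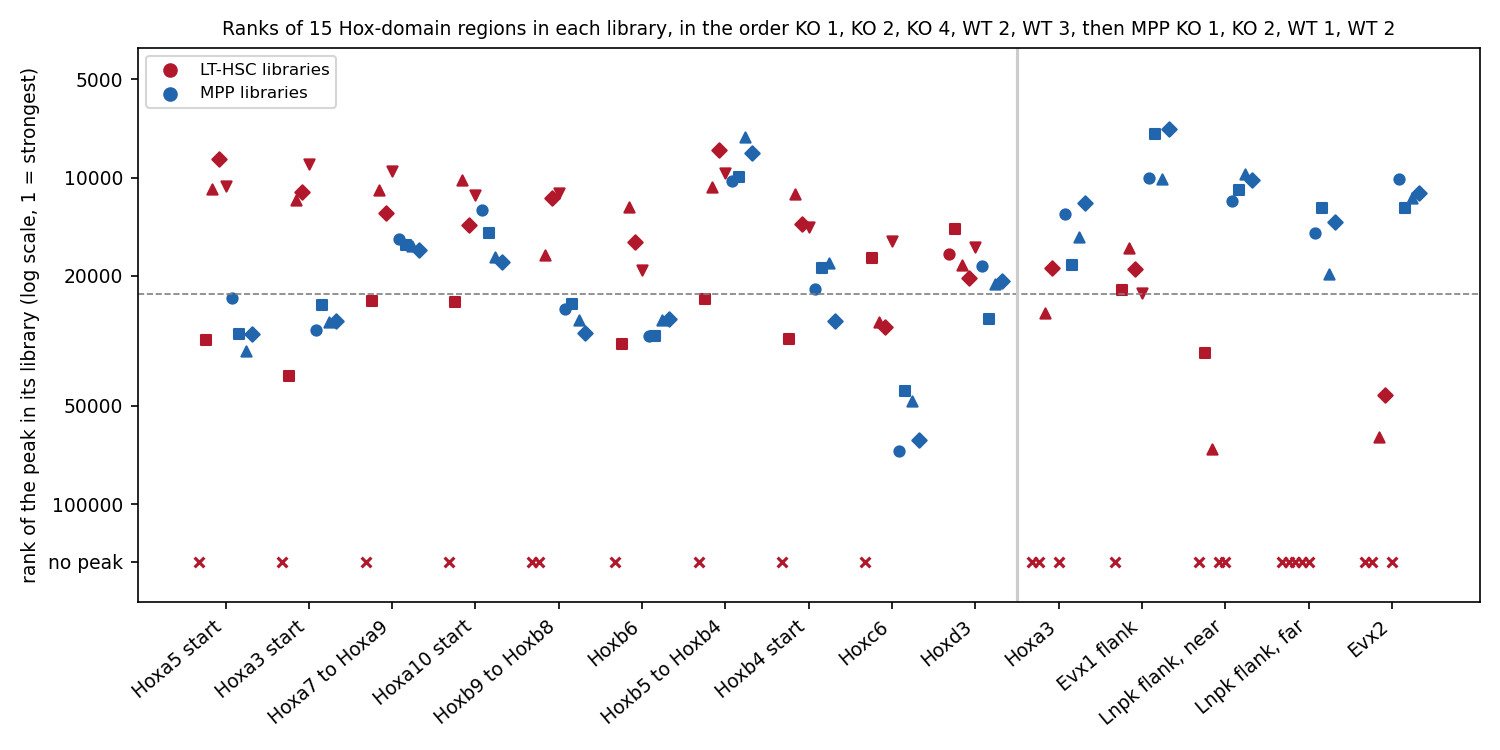
Rank of 15 Hox-domain regions in each library on a log axis, where 1 is the strongest peak and crosses mark libraries with no peak. The dashed line is rank 22690, and the 5 regions right of the vertical line are those called stronger in MPP. At the Hoxa5 start, LT-HSC KO 4, WT 2 and WT 3 stand at 10851, 8749 and 10615 and the MPP libraries at 23311 to 34017.

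Several regions at the centre of Hoxa and Hoxb went the other way in 3 of the 5 LT-HSC libraries. At the start of Hoxa5 (gene 15402, chr6:52201754-52204587), a mid-cluster gene, the region chr6:52204211-52204764 ranked 31503, 10851 and 8749 in LT-HSC KO 2, KO 4 and WT 2 and 10615 in WT 3, and was not held by KO 1. MPP ranks were 23311, 30161, 34017 and 30060. At the start of Hoxa3 (gene 15400), chr6:52213193-52213630, LT-HSC ranks were 40633, 11692, 11037 and 9078 in the same 4 libraries and MPP ranks 29371, 24476, 27679 and 27522.
At both, LT-HSC KO 4, WT 2 and WT 3 stood above every MPP library and KO 1 and KO 2 did not, so the cell types overlapped. The exact permutation p was 0.167 (adjusted 0.288) for each.

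In Hoxb the same libraries stood out. Between Hoxb9 and Hoxb8, chr11:96278791-96279139 ranked 17235, 11575 and 11175 in LT-HSC KO 4, WT 2 and WT 3, was absent from KO 1 and KO 2, and ranked 25330, 24433, 27364 and 29925 in MPP. In Hoxb6 (gene 15414), a mid-cluster gene, chr11:96294363-96294882 ranked 32316, 12274, 15756 and 19225 in LT-HSC KO 2, KO 4, WT 2 and WT 3 and 30505, 30470, 27358 and 27132 in MPP. At the start of Hoxb4 (gene 15412, chr11:96318267-96321638), chr11:96318424-96319017 ranked 31203, 11195, 13845 and 14140 in those LT-HSC libraries and 21856, 18943, 18211 and 27566 in MPP.
At each of these 3 regions LT-HSC KO 4, WT 2 and WT 3 ranked above all 4 MPP libraries.

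Without LT-HSC KO 1 and KO 2, a setting chosen after the values were seen, 8 Hox-domain regions ranked stronger in all 3 remaining LT-HSC libraries than in all 4 MPP libraries and 3 ranked stronger in MPP, of 27 tested. Over all 30006 regions tested in that setting, 19.9% and 20.8% separated in these directions. No region passed the adjusted exact permutation test, whose smallest adjusted p was 0.0702, and the smallest p that 3 against 4 libraries allow is 0.0286. The 8 regions were those of Hoxa5, the Hoxa3 start, Hoxa7 to Hoxa9, Hoxb9 to Hoxb8, Hoxb6, the Hoxb4 start, the Hoxb1 start and chr11:96407594-96408125, 42.1 kb from Hoxb1.

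The strongest Hoxb region by median rank was shared by both cell types. It was chr11:96311319-96312139, in the stretch between Hoxb5 and Hoxb4 that lies within the bounds of Hoxb3. Its ranks were 23565, 10691, 8222 and 9696 in LT-HSC KO 2, KO 4, WT 2 and WT 3 and 10269, 9967, 7483 and 8417 in MPP, and LT-HSC KO 1 had no peak. A second shared region outside the genes, chr11:96399931-96400376, 34.4 kb from Hoxb1, ranked 16226, 16252 and 21319 in LT-HSC KO 4, WT 2 and WT 3 and 16236, 23534, 17809 and 21090 in MPP.
LT-HSC WT 2 and WT 3 lay within the MPP range at both regions. LT-HSC KO 4 ranked just outside it at each, and KO 2 ranked below all MPP libraries at the first.

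In the posterior part of Hoxa, the self-renewal genes had peaks in both cell types. The region at the start of Hoxa10 (gene 15395, chr6:52231197-52240854), chr6:52240351-52240752, ranked 24074, 10192, 13997 and 11268 in LT-HSC KO 2, KO 4, WT 2 and WT 3 and 12573, 14758, 17500 and 18187 in MPP. The region chr6:52225830-52226408 in Hoxa9 (gene 15405, chr6:52223097-52227370) ranked 18304, 18561 and 12792 in LT-HSC KO 4, WT 2 and WT 3 and 21731, 15645, 24454 and 27383 in MPP. Between them and Hoxa7, chr6:52221564-52222343 ranked 23784, 10921, 12858 and 9529 in LT-HSC KO 2, KO 4, WT 2 and WT 3 and 15404, 16084, 16219 and 16680 in MPP.
LT-HSC KO 1 held none of these 3 regions, and the cell types overlapped at each. At the last, LT-HSC KO 4, WT 2 and WT 3 ranked above every MPP library and KO 2 ranked below all of them.

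Hoxa7, a mid-cluster gene, was the single Hox gene with a promoter peak in LT-HSC KO 1. The region chr6:52217403-52217758 ranked 13874 there, 19385 in KO 4, 21774 in WT 2 and 10132 in WT 3, and 16299, 19749, 23104 and 23686 in MPP, with no peak in KO 2. The region at Hoxb5 (gene 15413), chr11:96303087-96303432, ranked 26940 and 23059 in LT-HSC KO 4 and WT 2 and 20479, 24238, 29201 and 26835 in MPP, and was missing from the other 3 LT-HSC libraries. Hoxb3 (gene 15410) had a region at a gene end, chr11:96307025-96307264, held only by LT-HSC KO 4 (47326) and WT 2 (29980). Hoxb8 (gene 15416) had no region nearest to its start. Within its gene bounds lay chr11:96284455-96284773, which was assigned to Hoxb7. Ranks there were 50386 and 40819 in LT-HSC KO 4 and WT 2 and 58697, 59975, 82173 and 74244 in MPP. LT-HSC KO 1, KO 2 and WT 3 had no peak there.

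Hoxc had few strong peaks. The region chr15:102999148-102999779 in Hoxc6, a mid-cluster gene, ranked 17569, 27580, 28593 and 15662 in LT-HSC KO 2, KO 4, WT 2 and WT 3 and 68686, 45122, 48377 and 63608 in MPP. No MPP library had a Hoxc-domain region among its 22690 strongest peaks, against 1 in LT-HSC KO 2 and 2 in LT-HSC WT 3. The best median ranks in Hoxc were 34660 in the flank toward Smug1, 39761 at Hoxc10 and 43422 near Hoxc8. Those at Hoxc10 were 43735 and 39761 in LT-HSC KO 4 and WT 2 and 31612, 31725, 29269 and 29774 in MPP.

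LT-HSC libraries alone held 9 regions, and each was held by LT-HSC KO 4 and WT 2 and by no other library. They lay in Hoxa (3), Hoxb (4) and Hoxc (2), with none in Hoxd, and none was called. Another 31 regions were held by MPP libraries only, 13 in clusters and 18 in flanks. All 4 MPP libraries held 65 of the 104 regions. Of all 95786 analysed regions, 6791 were held by LT-HSC libraries only, 29719 by MPP libraries only and 64003 by all 4 MPP libraries. The Hox shares are close to these, and the differences were not tested.

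At gene level, a promoter peak was a peak within 1 kb of the gene start, or of either gene end for the 16 genes whose strand the tables do not give. LT-HSC KO 1, KO 2 and KO 4 had 1, 6 and 22 of the 38 Hox genes with one, LT-HSC WT 2 and WT 3 had 19 and 7, and MPP libraries had 22, 20, 20 and 20. The means were 11 ± 9.03 (SD, n = 5) and 20.5 ± 1 (SD, n = 4). LT-HSC KO 4 reached the MPP number and WT 2 came close to it. Over all 20661 genes the libraries had 9193 to 13260 in LT-HSC and 13285 to 13543 in MPP. No Hox gene had a promoter peak in all 9 libraries, against 39.3% of all genes, and 16 (42.1%) had one in all 4 MPP libraries, against 62.4% of all genes.

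By position, the 11 genes of paralogue groups 1 to 4 had 4.2 ± 3.42 promoter peaks in LT-HSC and 6.5 ± 0.577 in MPP, and the 11 of groups 5 to 8 had 3.2 ± 2.28 and 5 ± 0.816. The 16 posterior genes of groups 9 to 13 had 3.6 ± 3.65 and 9 ± 0.816 (SD, n = 5 and 4). Of the posterior genes, LT-HSC KO 4 and WT 2 had 8 and 7, near the 8 to 10 of MPP, while KO 1, KO 2 and WT 3 had 0, 2 and 1. By cluster, 7 of 10 Hoxa genes, 6 of 10 Hoxb genes, 3 of 9 Hoxc genes and none of 9 Hoxd genes had a promoter peak in all 4 MPP libraries. Hoxa2, Hoxa6, Hoxb8, Hoxb13, Hoxc8, Hoxc12, Hoxd3, Hoxd10 and Hoxd12 had none in any library.

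**Figure D4:**
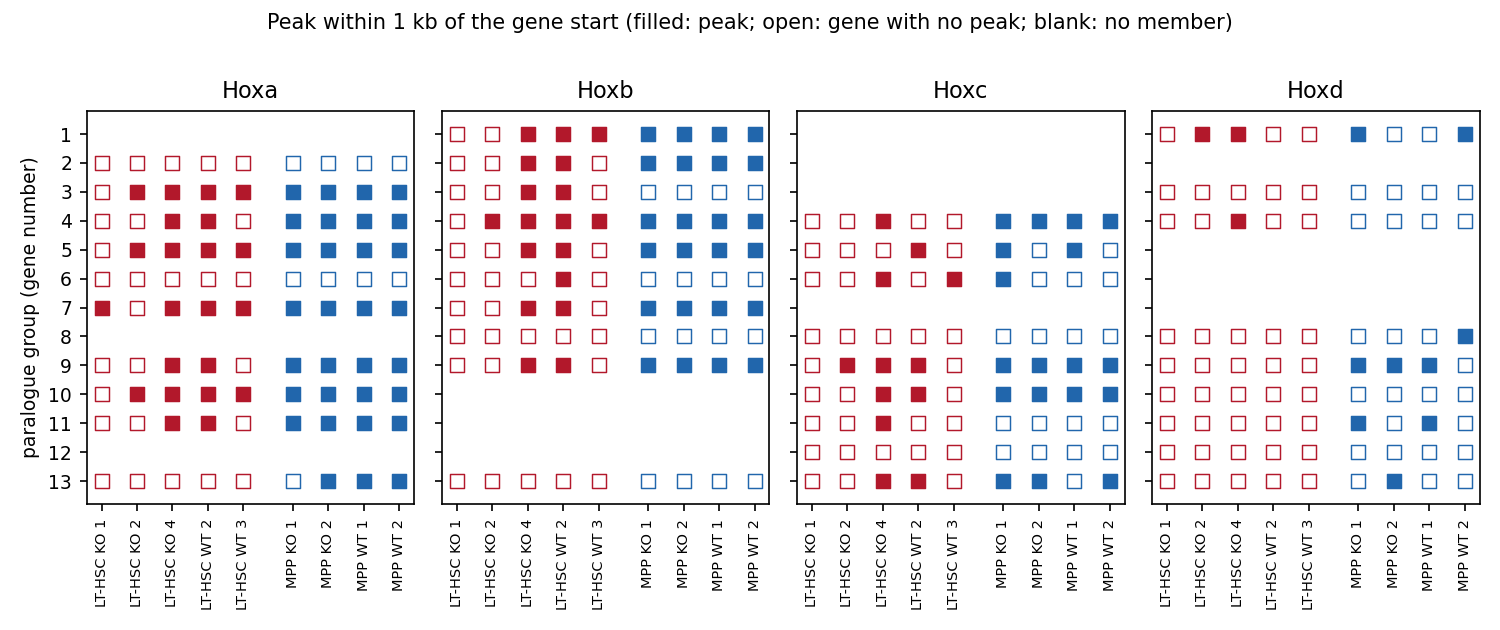
Promoter peaks of the 38 Hox genes, by cluster and paralogue group, with 1 column per library (red, LT-HSC; blue, MPP). Filled squares are genes with a peak within 1 kb of the start, or of either gene end where the strand is not given, and blank cells hold no member. LT-HSC KO 4 (22 genes) and WT 2 (19 genes) look like the MPP columns (20 to 22 genes), and LT-HSC KO 1 has 1 gene.

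Promoter presence was tested between cell types in 15 Hox genes by Fisher's exact test, and 0 were called in either direction, as for 0% of the 2337 genes tested. The smallest unadjusted p, 0.0476, belonged to Hoxa13, Hoxc4 and Hoxd9 (adjusted Fisher's exact p of 0.119). These posterior and anterior genes had peaks in 3, 4 and 3 MPP libraries and in 0, 1 and 0 LT-HSC libraries. Likeness between genes was measured as the sum over the 9 libraries of the absolute difference in assigned regions held. Closest to Hoxa9 were Hoxb5, Hoxb7 and Hoxc10 (sum of 1), to Hoxb4 were Hoxc4 (3), Hoxa3 and Hoxa13 (6), and to Hoxb5 were Hoxa4, Hoxa11 and Hoxc10 (0). Hoxd12 tied with those closest to Hoxa9 and to Hoxb5. Hoxa9, Hoxb5 and the genes closest to them each had 1 assigned region. A sum of 0 or 1 thus compares only which libraries held a single region.

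Genotype was compared within cell type, with labels permuted over 60 labellings and a smallest p of 0.0167. For presence, 2 Hox-domain regions could reach p under 0.05 and 0 were called, as for 0% of the 1565 regions tested over the genome. For ranks, 29 were tested and 0 called, as for 0% of 33933. At an unadjusted exact permutation p under 0.05 there were also 0 Hox-domain regions by either measure, against 2.49% of tested regions for presence and 1.81% (stronger in KO) and 2.16% (stronger in WT) for ranks. No exact permutation p for a rank difference in the Hox domains was below 0.1. The counts of LT-HSC KO 1 were below those of both WT libraries, and those of LT-HSC KO 4 were above them.

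In MPP, the genotypes differed little. MPP KO 1 and KO 2 held 83 and 83 Hox-domain regions and MPP WT 1 and WT 2 held 82 and 81, and had 22 and 20 against 20 and 20 Hox genes with a promoter peak. Among the strongest peaks the KO libraries had 20 and 16 Hox-domain regions and the WT libraries 15 and 14. With 2 libraries against 2 no test within MPP could reach p under 0.05.

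Promoter peaks at other genes of the Hox pathway differed between lists. Of 9 TALE cofactor genes, 5 to 7 had a promoter peak in LT-HSC libraries and 8 in each MPP library. Their 94 assigned regions gave 10 held more in MPP (10.6%) and 1 held more in LT-HSC, beside 17.3% and 0.24% of all analysed regions. By rank, 1 of 24 tested regions was stronger in MPP and 3 in LT-HSC, beside 12.4% and 5.45% of all regions tested by rank. Meis1, which encodes the main HOX partner in stem cells, had 7, 13, 23, 19 and 8 of its 30 regions held in LT-HSC KO 1, KO 2, KO 4, WT 2 and WT 3 and 24, 26, 20 and 20 in MPP. The MPP libraries and LT-HSC KO 4 overlapped at Meis1.

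For the lists that follow, the shares of all analysed regions were again 17.3% held more in MPP and 0.24% in LT-HSC. Of the 15 activating regulators found, 10 to 14 had a promoter peak in LT-HSC and 14 in MPP. Of their 116 regions, 18 (15.5%) were held more in MPP and 1 in LT-HSC. Of the 18 Polycomb genes found, 13 to 18 and 17 or 18 had one, and 35 of 150 regions (23.3%) were held more in MPP and 0 in LT-HSC. Kmt2a, Men1, Dot1l and Ezh2 each had a promoter peak in all 9 libraries, and each had 1 region held more in MPP. Over all 20661 genes, 7706 had at least 1 such region. Of the 11 upstream factors found, which include Cdx genes and the retinoid receptors, 3, 6, 9, 5 and 4 had a promoter peak in LT-HSC KO 1, KO 2, KO 4, WT 2 and WT 3, and 7 to 9 in MPP. For them 18 of 109 regions (16.5%) were held more in MPP and 2 in LT-HSC. Both of the latter were regions of Rarb, a retinoic acid receptor that pairs with RXR, which had 21 regions, 3 of them held more in MPP. For the Hox genes themselves, 67 regions were nearest to a member start, or to either end where the strand is not given. Of these, 8 (11.9%) were held more in MPP, in 6 genes, and 0 in LT-HSC.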

How the data were processed

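ATAC-seq peak lists of 9 libraries (5 LT-HSC, 4 MPP) were used. The authors called peaks in each library separately and deposited 1 narrowPeak list for each. Per peak, the authors' fold enrichment is a ratio to the caller's background. The −log10 p-value and −log10 q-value were computed by the authors' peak caller before they were deposited. The score the authors deposited is the caller's display value and was not used. Per the submitters' processing notes the build was mm10, and the tools named, without roles, were MACS2 2.1.1, cutadapt 1.7, SAMtools 0.1.18, FastQC, Bowtie2, DiffBind 2.6.6, edgeR 3.20.9 and HOMER 4.10.3. No source used here states a Tn5 shift or duplicate filter.

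Peaks overlapping by at least 1 bp were merged into 117465 regions, and the 95786 held by 2 or more libraries were analysed. Peaks were ranked within a list by deposited −log10 p-value. Presence was tested between cell types by two-sided Fisher's exact tests over the 52020 regions able to reach p under 0.05. Ranks among the 22690 strongest peaks, and genotype within cell type, were tested by two-sided exact permutation, all with Benjamini-Hochberg adjustment over the genome. Tests were checked on simulated data. Analyses ran in Python 3.11.15 with pandas 2.3.3, NumPy 2.4.6, SciPy 1.17.1 and matplotlib 3.10.9. Gene bounds and starts came from RefSeq tables of GRCm38.p6, which give gene bounds but no exons. No genome sequence was used here.

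The members, gene lists and tests were chosen with earlier results of these data known. The text names Hox genes with promoter peaks in all libraries, regions called after adjustment, the 3 best median ranks per cluster, 9 Hox genes known from blood, and regions at an unadjusted genotype p under 0.05. Other named regions and partner genes were chosen after their values were seen. The values of 1 gene are not reported here. Alternatives were a stricter q-value, lists of equal length, summit windows, 3 or more libraries, no flank, a narrower promoter window, ranks by fold, fewer ranks, each library left out, and a replicate block.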

Additional observations from a re-analysis of the deposited data

Results flagged for a closer look

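In the MPP libraries 3 Hox summaries had 1 library apart from 3 equal ones, among 21 sets of libraries checked for a value far from the others. The Hoxc domain had 82.4% of its regions held in MPP KO 1 and 76.5% in each other MPP library. The Hoxd domain had 4 regions among the strongest peaks of MPP KO 2 and 5 in each other MPP library. MPP KO 1 had 22 Hox genes with a promoter peak and the others 20. Each gap is 1 or 2 regions or genes. Where 3 libraries are equal, the check flags any gap at the remaining library, so no chance rate is given.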

How the results depend on the processing

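Regions held more in MPP numbered 15. They numbered 3 with lists of equal length, 6 with no flank, 15 to 24 with 1 library left out (24 without LT-HSC KO 4), and 0 with the replicate block, whose smallest p is 0.0556, so that no call could be made. Regions ranked stronger in MPP numbered 5. They numbered 4 with ranks by fold enrichment, 1 with no flank and 3 with ranks limited to the 15000 strongest peaks. None was called with the replicate block, with any 1 library left out, or without LT-HSC KO 1 and KO 2. In these smaller designs no adjusted p passed the threshold for any region in the genome. The number of Hox genes called for a promoter peak was 0, and 1 without LT-HSC KO 4. Whether the replicate numbers pair the libraries is not stated. Over 9 same-numbered pairs the correlations of deviations ran from -0.088 to 0.0196, and 0 were over 0.1. These values cannot settle it, because deviations in a group of 2 libraries mirror each other.

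The LT-HSC minus MPP share held, in percentage points, was -41.1 in Hoxa, -44.9 in Hoxb, -49.7 in Hoxc and -55.3 in Hoxd. With lists of equal length it was -8.85 in Hoxa, 11 in Hoxb and 40 in Hoxc, where 1 region was left, and -55 in Hoxd. With the flanks included, the direction thus changed with list length in Hoxb and Hoxc and was kept in Hoxa and Hoxd. In Hoxd 5 regions were left. Among the strongest peaks, LT-HSC and MPP libraries held on average 13.3% and 8.33% of the 9 regions inside the Hoxd cluster. They held 15% and 50% of the 8 regions in its flanks. In Hoxa, LT-HSC KO 4, WT 2 and WT 3 held 31.3%, 34.4% and 28.1% of regions among the strongest peaks, at or above the MPP libraries (21.9% to 28.1%), and KO 1 and KO 2 held 6.25% and 3.13%. The mean number of Hox genes with a promoter peak in MPP was 20.5. It was 19.25 at the stricter q-value, 4.75 with equal lists (4.8 in LT-HSC), 15.5 in the narrower window of 500 bp, and 19.5 with starts placed by the strand of the cluster, a setting added after seeing the data. Region by region, the calls were kept in 224 alternative values and lost in 91, and none reversed. With no flank every call is kept by construction, because the flank does not enter the genome-wide tests. The limit of 3 or more libraries leaves the presence tests unchanged. Regions not tested in a setting were not counted as lost, so these counts do not measure how stable the calls are. With no read counts, a missing peak may be an open region below the caller's threshold.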

Other observations

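Genes bound or regulated by HOX proteins in blood, 11 in all, had promoter peaks in 8 to 11 cases in LT-HSC libraries and in all 11 in each MPP library. Of their 325 regions, 60 (18.5%) were held more in MPP and 1 in LT-HSC, beside 17.3% and 0.24% of all analysed regions. By rank, 21 of 103 tested regions were stronger in MPP and 7 in LT-HSC, beside 12.4% and 5.45% of all regions tested by rank. Id2, an inhibitor of helix-loop-helix factors, had 57 regions, of which 14 were held more in MPP and 1 more in LT-HSC. Cdk6, a cell cycle kinase gene, had 7 of 29 held more in MPP, and Mecom, a stem cell factor gene, 2 of 36.

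The 7 other genes found within 100 kb of the clusters had 56 regions assigned to them, some outside the Hox domains, 6 held more in MPP (10.7%) and 0 in LT-HSC. By rank 6 of 24 were stronger in MPP and 1, near Mtx2, a mitochondrial gene beside Hoxd1, was stronger in LT-HSC, beside the same 12.4% and 5.45%. The microRNAs miR-196a and miR-196b, which share a seed, lie in Hoxa, Hoxb and Hoxc at 1783 to 3284 bp from the nearest region.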
